A study of Mus musculus with 4 samples.

Results

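The NOTCH pathway was followed through 37 genes of the 21287 named genes on the arrays, in thymic epithelial cells (TECs) of mice in which the homeobox gene Meis1 could be deleted by tamoxifen, and of their controls. The 37 were the receptors Notch1 to Notch4, their ligands, the proteases and fringe glycosyltransferases that act on them, the nuclear complex, the HES and HEY genes and a set of regulators, and every probe carrying one of these symbols was taken. They were measured by 54 probes. Of the 37 genes, 33 were tested because a probe was well above background in both pools of a genotype. The remaining 4, Maml3, Hes3, Hes7 and Hey2, were above background on no array.

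A NOTCH receptor on 1 cell is bound by a Delta-like or Jagged ligand on its neighbour. ADAM proteases and then gamma-secretase cut the receptor, and its intracellular part enters the nucleus, where it joins the DNA-binding protein RBPJ and a Mastermind-like coactivator and turns on genes such as those of the HES and HEY repressors. In the thymus, DLL4 on cortical TECs is the ligand that directs incoming progenitors to the T cell lineage, and NOTCH signalling within TECs is known from their progenitors and the medullary lineage.

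Each genotype was represented by 2 pools of 6 mice, from 2 independent experiments, and each pool was measured on 1 single-colour array. All mice carried K14-CreERT2, a tamoxifen-inducible Cre recombinase driven by the promoter of keratin 14, which is active in keratin 14-expressing epithelial cells, so TECs without that promoter's activity would keep Meis1. Meis1-CKO mice were Meis1fl/fl, and the controls, labelled WT, were Meis1fl/+ and thus carried 1 floxed allele themselves. All were injected at 3 weeks of age with 1 mg of tamoxifen, repeated over 3 days, and after 4 more days CD45- EpCAM+ cells were sorted.

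Levels are given as log2 signal relative to each array's 75th percentile of signal, so that 0 is that percentile, and differences are Meis1-CKO minus control on the same scale. Paired readings of a genotype are in the order pool 1, pool 2, and 4 readings in a row are the 2 controls followed by the 2 Meis1-CKO pools. Probe positions are mm9, and the exon or UTR that each probe lies in was not analysed here. On each array, 58.6% to 63.5% of spots exceeded background clearly, and no spot was saturated. Control 1 and Meis1-CKO 1 shared slide 1, control 2 and Meis1-CKO 2 shared slide 2, and slide, scan and replicate number could not be told apart. Meis1-CKO 2 stood apart, correlating at 0.857 to 0.884 with the other 3 arrays over 16802 features, whereas those 3 correlated at 0.936 to 0.943 with each other. All 15 TEC markers were above background on every array, with a summed signal of 747, 551, 624 and 293 times the 75th percentile. Meis1 itself read -0.12 and -0.91 in the controls and -0.44 and -2.08 in Meis1-CKO by its brighter probe, a difference of -0.75 that was 0.08 without Meis1-CKO 2. Its second probe read -3.19 and -3.23 in the controls and -3.77 and -4.74 in Meis1-CKO, separated, above background in both controls and in neither Meis1-CKO pool, and at least 1.46-fold lower. The floxed exons are not given in the sources used here, so the Meis1 probes do not check the labels. With 2 pools against 2, an exact permutation test of a single gene cannot go below 0.333, and limma's fit over all features was used. In sorted pools, fewer cells of a type and less RNA per cell cannot be told apart.

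No NOTCH gene passed the threshold of limma. At an adjusted p under 0.05 limma called 0 of the 33 tested members higher and 0 lower, as it called 0.0% of all 16810 features in each direction. At an unadjusted p under 0.05 it listed 2 members, Dll3 and Maml2, both lower in Meis1-CKO and 6.06% of those tested, against 2.77% of all features (1.42% lower and 1.35% higher). A gene is called separated where both Meis1-CKO arrays lie beyond both control arrays. By that description with a difference of at least 2-fold, 4 members were lower in Meis1-CKO, namely the ligand genes Dll3 and Jag2, the coactivator gene Maml2 and Hes6, and 1 was higher, the receptor gene Notch4. The 4 are 12.1% of the tested members against 3.94% of all features, and the 1 is 3.03% against 3.34%. In all, 20 of the 33 read lower, 60.6% against 54.6% of all features. At any size, 8 members were separated lower and 6 higher, 24.2% and 18.2%, against 14.4% and 11.1% of all features. These shares describe the list and are not a test of it. The Notch4 count rests on a gene that passed the filter through its Meis1-CKO arrays alone. An alternative used normexp background correction with an offset of 50 added to each signal, and quantile normalization. Beside 75th percentiles of signal of 93.2 to 152, such an offset makes log2 differences of dim probes smaller, by an amount that was not tested. Under this alternative the counts were 1 lower, which was Hes6, and 0 higher. They were 7 lower and 2 higher without Meis1-CKO 1, 3 and 2 without Meis1-CKO 2, 4 and 2 without control 1 and 4 and 3 without control 2. Separation asks less where a group has 1 array. The share of all features was not counted under these settings, so these counts cannot be read against those of all 4 arrays.

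**Figure D1:**
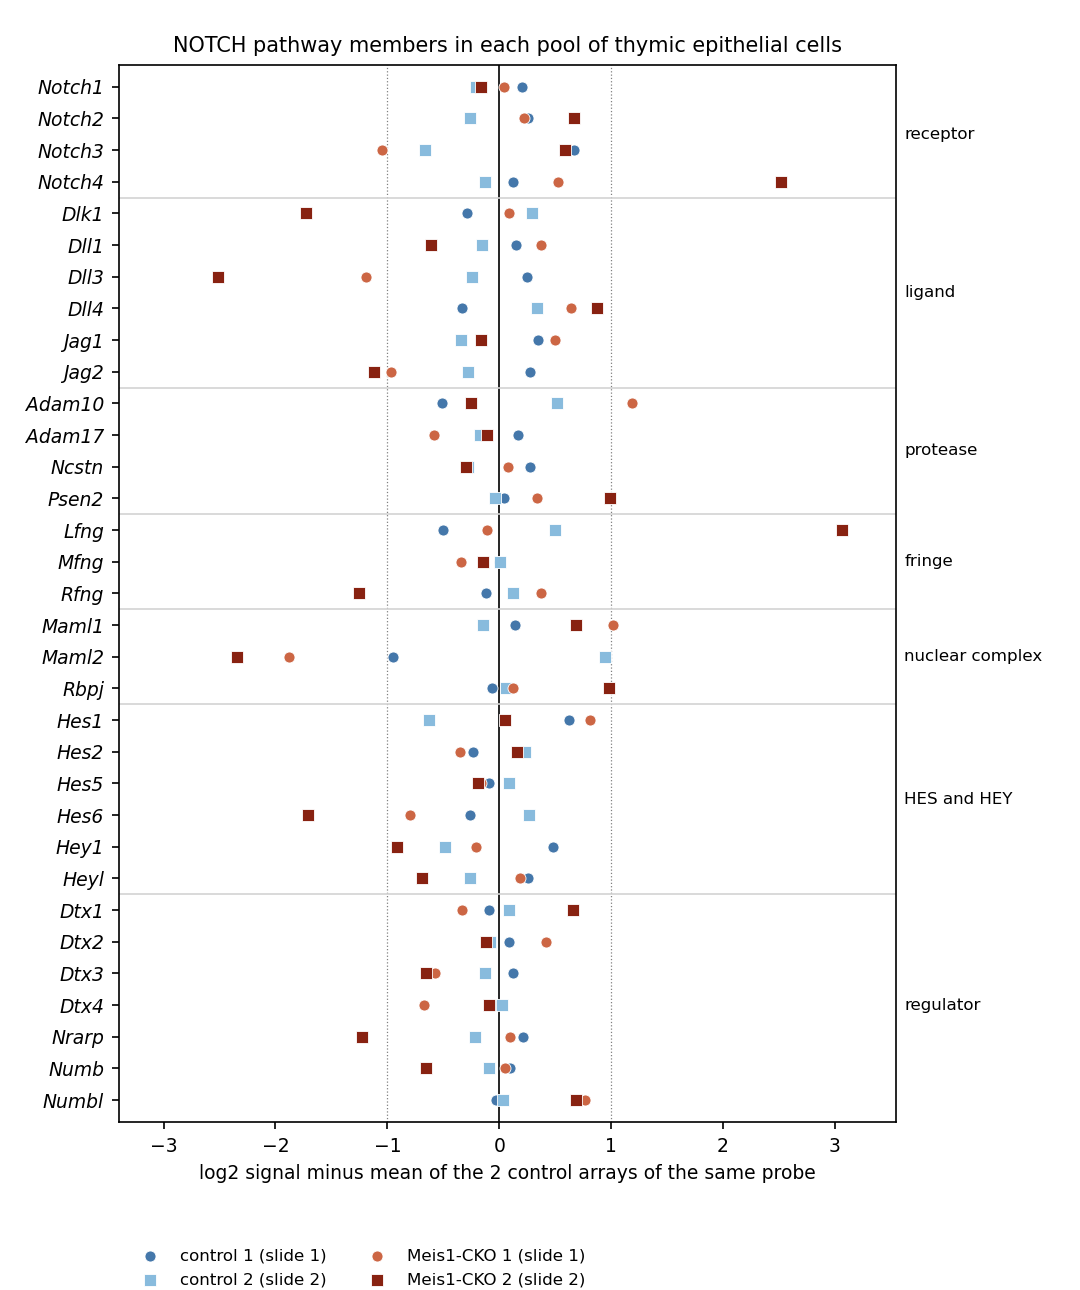
Log2 signal of the 33 tested members in each of the 4 pools, minus the mean of the 2 control arrays of the same probe (x axis, log2 units), grouped by role. Circles are slide 1, squares slide 2, blue control and red Meis1-CKO, and dotted lines mark a 2-fold difference. Dll3, Jag2, Maml2 and Hes6 have both red symbols left of both blue ones, and Notch4 and Lfng have 1 far red square, Meis1-CKO 2.

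Among the receptor genes, Notch1 and Notch2 overlapped between genotypes, and the widest spread came from Notch3 and Notch4. On slide 2 all 4 read higher in Meis1-CKO, at 0.04, 0.93, 1.25 and 2.64 for Notch1 to Notch4, and on slide 1 Notch4 alone did. Notch1 read 2.94 and 2.53 in the controls and 2.78 and 2.57 in Meis1-CKO. The 2 genotypes overlapped, with a difference of -0.06 (SE 0.44, n = 2 pools each, limma adjusted p = 1), and a second, adjoining Notch1 probe gave -0.07. The sign turned to 0.15 without control 1 and to 0.05 without Meis1-CKO 2.

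Notch2 read 3.39 and 2.87 in the controls and 3.35 and 3.80 in Meis1-CKO, again overlapping, with a difference of 0.45 (SE 0.47, limma adjusted p = 1). Its 3 probes on chromosome 3 gave 0.45, 0.18 and 0.08, so the size of the difference depended on the probe.

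Notch3, a receptor that T cell progenitors also express, read -0.76 and -2.09 in the controls and -2.47 and -0.84 in Meis1-CKO. The slides thus went opposite ways, by -1.70 on slide 1 and 1.25 on slide 2, and the overall difference was -0.23 (SE 0.76, limma adjusted p = 1). It was -1.04 without Meis1-CKO 2, 0.58 without Meis1-CKO 1 and 0.44 without control 1.

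Notch4 (probe at chr17:34725120-34725179, plus strand), known as a receptor of the endothelium, read -3.53 and -3.78 in the controls and -3.13 and -1.14 in Meis1-CKO. It was well above background on neither control array and on both Meis1-CKO arrays, and so passed the filter through the arrays where it is high. The mean of the 2 Meis1-CKO arrays was at least 2.46-fold higher, with a fitted difference of 1.52 (SE 0.74, limma adjusted p = 1). For this bound the dim control readings were raised, where lower, to the dimmest signal that counted as above background. It holds for the mean of 2 unequal readings under this processing, not for each pool or setting. Most of the difference lay in Meis1-CKO 2, with 0.40 on slide 1 and 2.64 on slide 2. It was 0.52 without Meis1-CKO 2 and 0.36 with normexp correction, and its limma adjusted p lay between 0.072 and 1 over the alternatives.

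The ligand genes split by member. Dll3, a Delta-like gene whose product is known to inhibit the pathway from within the cell, and Jag2 read lower in both Meis1-CKO pools on both slides, whereas Dll4 read higher on both and Dll1 and Jag1 overlapped. Dll3 (probe at chr7:29078763-29078822, minus strand, mm9) read 0.23 and -0.26 in the controls and -1.21 and -2.53 in Meis1-CKO. Both Meis1-CKO pools lay below both controls, with -1.44 on slide 1 and -2.27 on slide 2. The difference was -1.85 (3.61-fold lower, SE 0.60, limma unadjusted p = 0.0238, adjusted p = 1), the smallest p of the list and rank 233 among all features. It was -1.19 without Meis1-CKO 2 and -2.51 without Meis1-CKO 1, and with normexp correction it was -0.85. Its limma adjusted p lay between 0.0779, without Meis1-CKO 1, and 1 over the alternatives.

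Jag2 (probe at chr12:114146887-114146946, minus strand, mm9), a Jagged ligand gene of epithelia such as the epidermis, read -0.44 and -0.99 in the controls and -1.68 and -1.83 in Meis1-CKO. The difference was similar on the 2 slides, -1.24 and -0.84, and did not rest on Meis1-CKO 2, since it was -0.96 without that array. Over all 4 arrays it was -1.04 (2.06-fold lower, SE 0.46, limma adjusted p = 1, lowest over the alternatives 0.383), and -0.49 with normexp correction.

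Dll4, the ligand gene that TECs use to instruct T cell fate, read -3.29 and -2.62 in the controls and -2.31 and -2.08 in Meis1-CKO. All 4 arrays were above background and the genotypes did not overlap, with 0.98 on slide 1 and 0.54 on slide 2. The difference of 0.76 (1.69-fold, SE 0.47, limma adjusted p = 1) was under 2-fold, and it was 0.19 with normexp correction.

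Jag1, which is measured by 2 probes, read 1.41 and 0.72 in the controls and 1.56 and 0.90 in Meis1-CKO, a difference of 0.17 (SE 0.51, limma adjusted p = 1) that turned to -0.18 without control 2 and to -0.17 without Meis1-CKO 1. Dll1 read -0.07 and -0.37 in the controls and 0.15 and -0.83 in Meis1-CKO, a difference of -0.12 that was 0.37 without Meis1-CKO 2 and 0.03 without control 1. Dlk1, a Delta-like gene without the usual receptor-binding region, was at 0.38 on slide 1 but at -2.02 on slide 2, and its second probe was at 0.87 and -1.23. In Dlk1 both probes thus showed opposite slides.

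Of the 4 protease genes tested, 1 was separated, on the higher side, as were 11.1% of all features. Psen2, a catalytic subunit of gamma-secretase, read 2.56 and 2.48 in the controls and 2.86 and 3.51 in Meis1-CKO, a difference of 0.66 (SE 0.47, limma adjusted p = 1). Slide 1 gave 0.30 and slide 2 gave 1.02. Ncstn, the gamma-secretase subunit that recognises substrates, differed by -0.11, and Adam17 by -0.34 and -0.08 by its 2 probes. Adam10, the protease of ligand-dependent cleavage, was at 1.70 on slide 1 but at -0.76 on slide 2, so its overall 0.47 (SE 0.68) joined opposite values.

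Of the 3 fringe genes, whose enzymes extend sugars on NOTCH and so shift its choice of ligand, Lfng had the reading farthest above its control mean of the tested members. It read -1.04 and -0.04 in control 1 and 2, -0.65 in Meis1-CKO 1 and 2.52 in Meis1-CKO 2. Meis1-CKO 1 lay between the controls, so the difference of 1.48 (SE 1.09, limma adjusted p = 1) came from 1 pool, and it was -0.11 without Meis1-CKO 2. Without Meis1-CKO 1 it was 3.06, with a limma adjusted p of 0.0645, in a range of 0.0645 to 1 over the alternatives. A second Lfng probe was above background only in Meis1-CKO 2, at -1.80, and read -5.68, -4.21 and -4.02 on the other arrays. Mfng, by contrast, was at -0.25 with all readings between 0.02 and 0.37, and Rfng was at 0.49 on slide 1 but at -1.37 on slide 2.

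In the nuclear complex, Maml2 read lower and Maml1 and Rbpj higher in both Meis1-CKO pools. Maml2 has 3 probes along chromosome 9, and only 1 of them carried the difference. That probe is shown with the second probes of Hes6 and Lfng, because the Maml2 result rests on it, and because those second probes give a further reading of the Hes6 and Lfng differences. Sequences are as in the array files, with mm9 positions of chr9:13425586-13425645 and chr5:141090156-141090215 on the plus strand for Maml2 and Lfng and of chr1:93309308-93309367 on the minus strand for Hes6. No base is capitalised, since the whole of each oligonucleotide detects the transcript.
Maml2 probe with the difference: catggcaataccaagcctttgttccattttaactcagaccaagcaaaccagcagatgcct
Hes6 second probe: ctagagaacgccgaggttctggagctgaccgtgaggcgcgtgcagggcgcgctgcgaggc
Lfng second probe: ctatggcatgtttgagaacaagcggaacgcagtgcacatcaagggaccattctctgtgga

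By the first of these, Maml2 read -1.32 and 0.58 in the controls and -2.25 and -2.71 in Meis1-CKO. The genotypes did not overlap, but the controls themselves were apart by more than the slide 1 difference of -0.93, and slide 2 gave -3.29. The overall difference was -2.11 (4.32-fold lower, SE 0.72, limma unadjusted p = 0.0295, adjusted p = 1). It was -1.16 without control 2 and -3.06 without control 1, and -0.92 with normexp correction. The probe at chr9:13324484-13324543 read -2.03, -1.48, -2.10 and -1.53, a difference of -0.06 with overlapping genotypes. The last probe was above background in control 2 and Meis1-CKO 2 only, at -2.73 and -1.90. The mean over the tested Maml2 probes differed by -1.08, so the largest difference of the list was carried by a single probe.

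Maml1, another Mastermind-like coactivator gene, read -0.94 and -1.23 in the controls and -0.07 and -0.40 in Meis1-CKO. The 2 slides gave nearly the same difference, 0.87 and 0.83, and the overall 0.85 (1.80-fold, SE 0.44, limma adjusted p = 1) lay between 0.68 and 1.01 when 1 array was left out. Rbpj, the DNA-binding hub of the pathway, read 0.57 and 0.70 in the controls and 0.76 and 1.62 in Meis1-CKO, a difference of 0.56 (SE 0.50, limma adjusted p = 1) that was 0.12 without Meis1-CKO 2.

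Of the 9 HES and HEY genes, 6 were tested, and 5 of these lay lower on both slides, where 26.5% of all features did, though 3 of the 6 differed by less than 0.3 overall. Hes6, which encodes a family member known to oppose HES1, had the largest difference. It read 2.05 and 2.58 in the controls and 1.52 and 0.61 in Meis1-CKO. Both Meis1-CKO pools were below both controls, by -0.53 on slide 1 and -1.97 on slide 2. The difference was -1.25 (2.38-fold lower, SE 0.53, limma unadjusted p = 0.0591, adjusted p = 1), and -0.80 without Meis1-CKO 2. The second Hes6 probe, printed above, read -2.92, -2.22, -3.20 and -3.77 in the same order and differed by -0.91, also with separated genotypes, but was not above background in Meis1-CKO 2.

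Hes1, the canonical NOTCH target, did not follow Hes6. It read -0.64 and -1.89 in the controls and -0.45 and -1.21 in Meis1-CKO, a difference of 0.44 (SE 0.61, limma adjusted p = 1) that was -0.19 without control 2. Hey1 read 3.85 and 2.88 in the controls and 3.16 and 2.45 in Meis1-CKO, with -0.69 and -0.42 on slides 1 and 2 and -0.56 overall (SE 0.55, limma adjusted p = 1), and -0.07 without control 1. Here the gap between the 2 controls was wider than the difference between genotypes. Hes5 (-0.17), Heyl (-0.25) and Hes2 (-0.09) had smaller differences, while a second Hes2 probe gave 0.26 and a second Heyl probe -0.51.

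Among the 7 regulators, 1 was higher on both slides, Numbl, beside 20.4% of all features. Lower on both slides were 4, Dtx3, Dtx4, Numb and Nrarp, beside 26.5% of all features. Numb and Nrarp lay below both controls in 1 pool only, Meis1-CKO 2. Nrarp, a NOTCH target that limits the signal, read 1.17 and 0.74 in the controls and 1.05 and -0.27 in Meis1-CKO, a difference of -0.56 (SE 0.59, limma adjusted p = 1) that was 0.10 without Meis1-CKO 2. Dtx1, a Deltex ubiquitin ligase gene and a NOTCH target in T cells, read -2.51 and -2.33 in the controls and -2.75 and -1.76 in Meis1-CKO, with overlapping genotypes, a difference of 0.17 and -0.33 without Meis1-CKO 2. Numbl, a NUMB-like adaptor gene, read -2.44 and -2.38 in the controls and -1.64 and -1.72 in Meis1-CKO, with 0.80 and 0.66 on the 2 slides and 0.73 overall (SE 0.42, limma adjusted p = 1). Its spread within each genotype was small against this difference, which all the same stayed under 2-fold.

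Dtx3 was at -0.62, with a second probe at -0.38, and both probes were separated. Dtx4 was at -0.38 by the probe that stands for it, also separated, while 1 of its other probes, above background in Meis1-CKO alone, was at 0.91. Dtx2 (0.15) and Numb (-0.30, second probe -0.52) completed this set. Of the 12 members with more than 1 tested probe, the probes of Dtx4 and Hes2 were those that disagreed in sign.

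**Figure D2:**
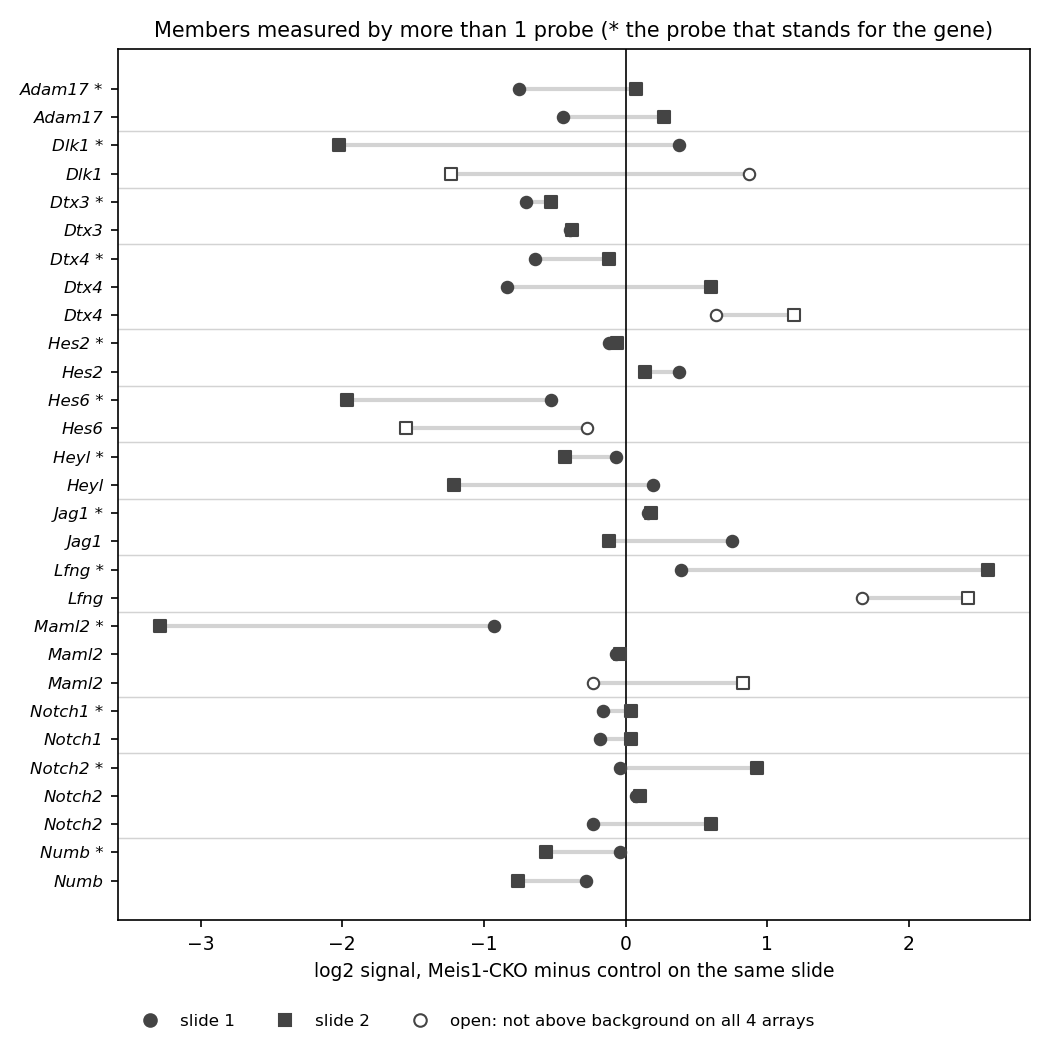
Difference in log2 signal, Meis1-CKO minus control, on slide 1 (circles) and slide 2 (squares) for each probe of the members that have more than 1 probe, Maml3 left out because no probe of it was above background. Open symbols mark probes not above background on all 4 arrays and an asterisk the probe that stands for the gene. The first Maml2 probe reaches -3.29 on slide 2 while the next stays at -0.04, and both Hes6 probes lie left of 0.

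On slide 1, 14 of the 33 tested members were higher in Meis1-CKO, beside 8430 of all 16807 features. On slide 2 also 14 were, beside 7346 of all 16805 features. Opposite signs on the 2 slides were found for 10 members, 30.3% against 53.1% of all features. Lower on both slides were 14 members, 42.4% against 26.5% of all features, and higher on both were 9, 27.3% against 20.4%. A difference of at least 2-fold was found on slide 1 for 1 member higher (3.03%, against 8.55% of all features) and 3 lower (9.09%, against 5.9%). On slide 2 it was found for 4 higher (12.1%, against 11.3%) and 6 lower (18.2%, against 17.1%). Slide 2 shares of the list were thus close to those of all features. The median difference of the tested members was -0.06 on each slide and -0.12 over both, against -0.05 for all features, and -0.15 over the 32 members above background on all 4 arrays. It was 0.08 without Meis1-CKO 2, 0.01 without control 1 and -0.27 without control 2, and the sign of 10 of the 33 members turned without Meis1-CKO 2. Turned signs were not counted over all features, so this number cannot be read as particular to the list.

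**Figure D3:**
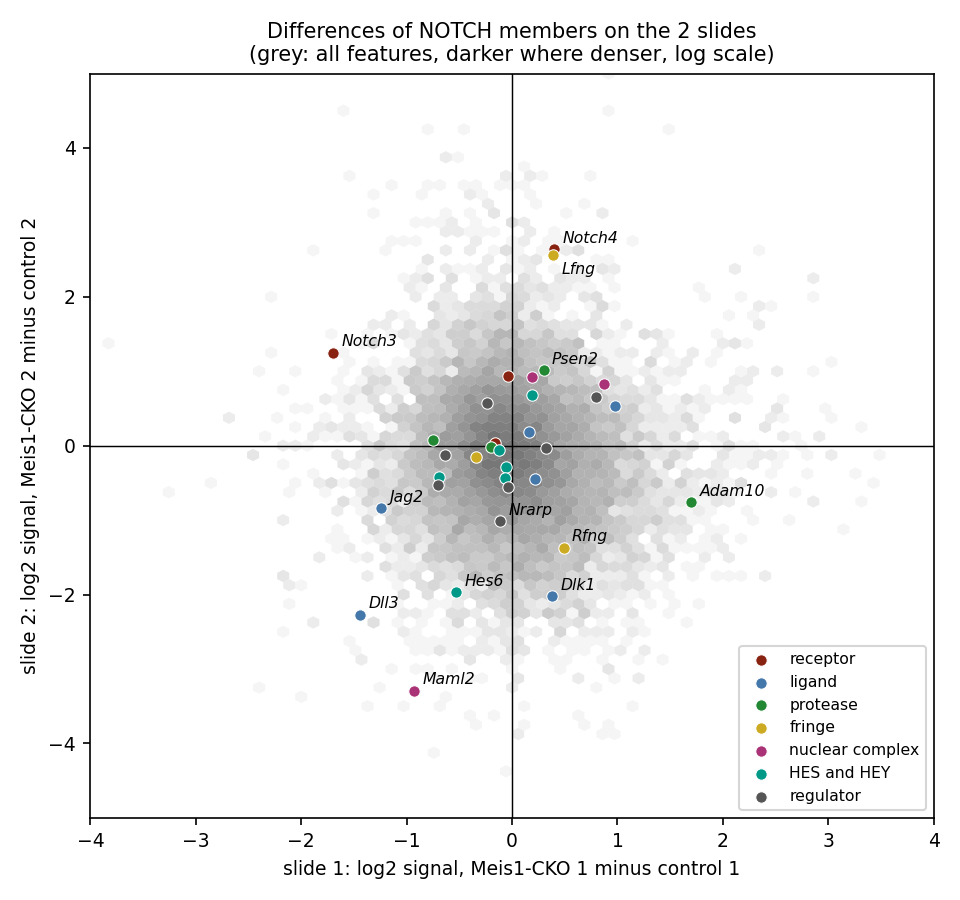
Difference in log2 signal between Meis1-CKO and control on slide 1 (x axis) against slide 2 (y axis) for the 33 tested members, coloured by role, over all features within the axes in grey. Members with at least a 2-fold difference on either slide are named. Dll3, Maml2, Jag2 and Hes6 lie at the lower left, Notch4 and Lfng at 2.64 and 2.56 on slide 2, and Notch3 and Adam10 in opposite corners.

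Further genes of the pathway, 43 in a list of secretase subunits, glycosyltransferases, ubiquitin ligases, corepressors and acetyltransferases, gave 36 tested genes. Limma called 0 of them at an adjusted p under 0.05 and 0 at an unadjusted p under 0.05, and their median difference was 0.02. With at least a 2-fold and separated difference, 1 of the 36 was higher, beside 3.34% of all features, and 0 were lower, beside 3.94%. The 1 was Aph1b, a gamma-secretase subunit gene, at 1.01 (SE 0.66), with 0.11 on slide 1 and 1.90 on slide 2. Of the 36, 9 were separated higher and 4 lower at any size, beside 11.1% and 14.4% of all features.

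Of 7 tested genes that NOTCH is known to regulate in T cell progenitors, 5 read lower in Meis1-CKO, beside 54.6% of all features, and 0 were called. Ptcra, the pre-T cell receptor chain, was at -0.68 and Il2ra at -0.66, and these 2 were separated lower, as were 14.4% of all features. Il7r was at 3.07 in Meis1-CKO 2, against 0.29, -0.13 and -0.18 on the other arrays. Il7r thus had its high reading in the same pool as Lfng, and Tcf7 was also highest there, at 3.27. Gata3, Igf1r and Myc instead had their lowest readings in that pool, at -0.04, 0.77 and 1.01. Ptcra and Il2ra were lowest in Meis1-CKO 1.

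Markers of other cell types moved with several members, although depletion and the CD45- gate would remove leukocytes. Ptprc, which encodes CD45, read 1.44, 1.19, -0.75 and 5.55 in the 4 pools, by far highest in Meis1-CKO 2. The signals of 20 markers of thymocytes and T cells summed to 53.9, 20.9, 7.72 and 50.1 times the 75th percentile in the 4 pools, with 15, 17, 15 and 19 of them above background. Notch3 had the order of these sums over the 4 pools, highest in control 1 and Meis1-CKO 2. By the median of the 20 markers, at -1.50, -2.03, -2.53 and 0.30, Meis1-CKO 2 came before control 1, unlike in Notch3. Dntt, 1 of these markers, alone read 5.13 in control 1 and 3.49 in Meis1-CKO 2. The defining markers Cd3e, Cd3d and Cd8a were above background in all 4 pools, and Rag2 in none. The 17 myeloid and dendritic markers, which include Ptprc, summed to 31.7, 39.2, 34.6 and 140 times, with 11, 14, 15 and 17 above background. The high Ptprc reading is thus part of this sum and not apart from it, as are Tyrobp at 4.89 and Ccr7 at 3.78 in Meis1-CKO 2. Of the tested markers on this list, Lyz2, Adgre1, C1qb and Itgam were not highest in that pool, and the others were. These exceptions read 4.00, 1.96, -0.58 and 0.64 there. Lfng and Notch4 were highest in that same Meis1-CKO 2 pool. The 10 endothelial markers summed to 1.30, 1.46, 1.67 and 4.91 times, with 5, 5, 7 and 5 above background. Their median log2 signal was -3.55, -3.35, -2.65 and -3.84. Meis1-CKO 2 was thus highest by the sum and lowest by the median. Tie1 and Emcn were above background in no pool. Cdh5, Egfl7 and Plvap were not above background in Meis1-CKO 2, where Notch4 was highest, while Kdr was above background in that pool alone. Flt1, above background in both Meis1-CKO pools and neither control, read -3.95, -3.46, -2.31 and -2.45. Pecam1, also carried by leukocytes, read -3.15, -3.25, -2.75 and -0.77, the order of its Meis1-CKO pools being that of Notch4. Fibroblast markers summed to 17.7, 12.7, 14.8 and 8.38 times, B cell markers to 1.70, 1.13, 1.23 and 1.33 and erythroid markers to 6.29, 2.70, 4.10 and 1.55. TEC markers were lowest in Meis1-CKO 2 by the sum given above, though not each of them was, and Ly75 was highest there at 2.92. Dll3, Jag2, Maml2 and Hes6 were lowest in that pool too, as were further members such as Hey1, Nrarp and Dlk1. The part of any of these cell types in the member differences was not tested.

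**Figure D4:**
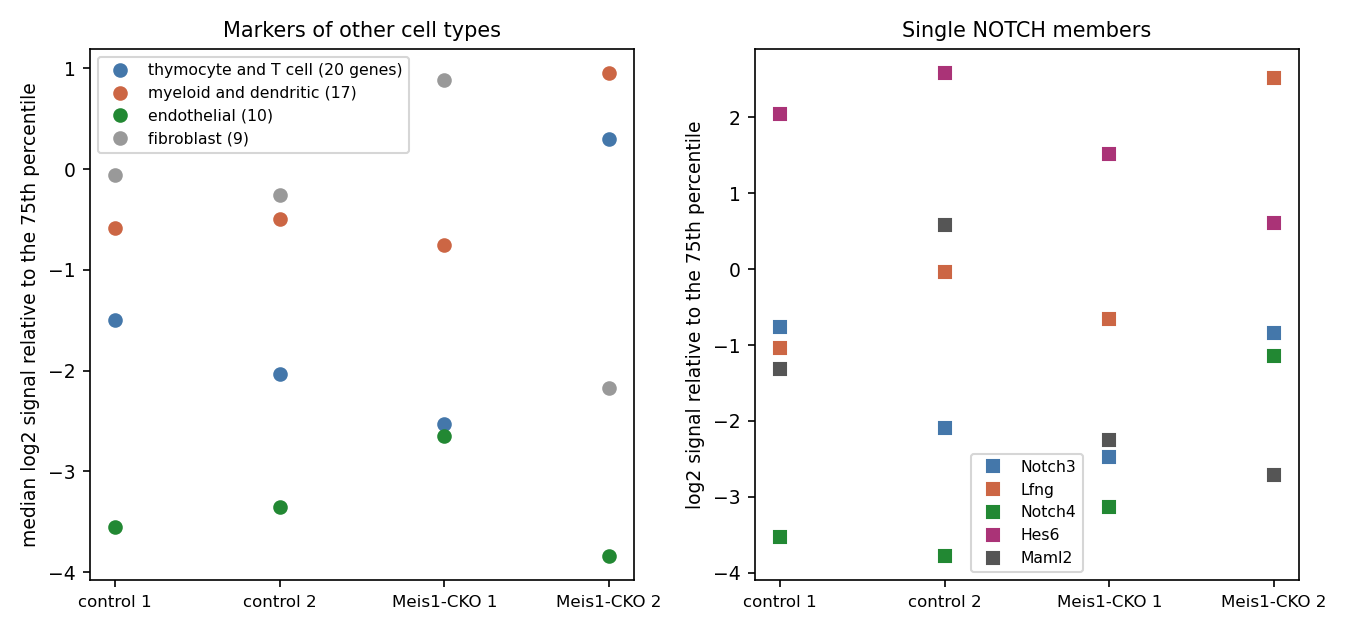
Left, median log2 signal relative to the 75th percentile of 4 marker lists in each pool. Right, log2 signal of 5 NOTCH members on the same scale. Thymocyte and myeloid medians are highest in Meis1-CKO 2, as are Lfng and Notch4, while Hes6 and Maml2 are lowest there, and Notch3 is at -0.76 and -0.84 in control 1 and Meis1-CKO 2.

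The promoters of the members that differed most were examined for the core sequences that the deleted factor and RBPJ are known to bind. MEIS proteins bind TGACAG and RBPJ binds TGGGAA, and each was searched on both strands in the 250 bases before each RefSeq gene start (GRCm38.p6). Windows were found for 29 of the 37 members. TGACAG was present for 9 of the 29, or 31.0%, against 18.0% of 27025 genes, and TGGGAA also for 9, or 31.0%, against 24.1%. Of the 5 members with a separated difference of at least 2-fold, Maml2, Hes6 and Notch4 had a TGACAG match, and the windows of Dll3 and Jag2 held neither motif. Lfng, the tested member with the reading farthest above its control mean, carried TGGGAA once on each strand. A match says only that these letters are present. These 4 windows are shown 5′ to 3′ on the strand of the gene with every match in capitals, TGACAG or CTGTCA in the first 3 and TGGGAA or TTCCCA in the last. They lie at chr9:13297708-13297957 (Maml2, plus strand), chr1:91414039-91414288 (Hes6, minus), chr17:34564045-34564294 (Notch4, plus) and chr5:140607091-140607340 (Lfng, plus).
Maml2 promoter: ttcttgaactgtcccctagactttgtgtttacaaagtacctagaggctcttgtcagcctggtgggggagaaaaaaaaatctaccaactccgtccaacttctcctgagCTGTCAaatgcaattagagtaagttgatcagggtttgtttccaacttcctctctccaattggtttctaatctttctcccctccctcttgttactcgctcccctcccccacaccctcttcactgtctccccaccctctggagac
Hes6 promoter: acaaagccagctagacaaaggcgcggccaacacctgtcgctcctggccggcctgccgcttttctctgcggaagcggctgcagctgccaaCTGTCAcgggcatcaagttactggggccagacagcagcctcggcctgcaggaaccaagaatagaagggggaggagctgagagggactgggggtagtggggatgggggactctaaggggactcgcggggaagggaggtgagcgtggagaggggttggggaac
Notch4 promoter: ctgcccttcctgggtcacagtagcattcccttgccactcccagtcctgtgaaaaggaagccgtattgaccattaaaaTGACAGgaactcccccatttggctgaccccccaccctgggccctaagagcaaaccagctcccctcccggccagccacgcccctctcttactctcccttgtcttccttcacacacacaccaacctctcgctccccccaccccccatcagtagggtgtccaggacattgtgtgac
Lfng promoter: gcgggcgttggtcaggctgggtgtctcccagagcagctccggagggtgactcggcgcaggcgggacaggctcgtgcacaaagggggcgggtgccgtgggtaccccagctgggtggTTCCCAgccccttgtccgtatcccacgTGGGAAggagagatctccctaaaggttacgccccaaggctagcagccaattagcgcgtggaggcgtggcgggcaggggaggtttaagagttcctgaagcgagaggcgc

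In these windows the TGACAG match begins 143 bases before the start in Maml2, 161 in Hes6 and 173 in Notch4, and the TGGGAA matches of Lfng 135 and 108 bases before it. Maml2 and Hes6 each have a further RefSeq start whose window holds no TGACAG. The 3 genes with a TGACAG match went different ways, Maml2 and Hes6 lower and Notch4 higher in Meis1-CKO. Dll4, with 2 such matches, was at 0.76, and Notch3, Dll1, Numb, Psen2 and Rfng, with 1 or more, were at -0.23, -0.12, -0.30, 0.66 and -0.44. Of the 9 members with the motif, 3 thus read higher and 6 lower in Meis1-CKO. Of all tested members 60.6% read lower, and of all features 54.6%. Whether members with the motif differ from these shares was not tested.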

How the data were processed

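The deposited scanner files hold linear spot intensity values that, per the file headers, were background-subtracted within each array and, per the submitters' processing notes, come from Agilent Feature Extraction 9.5.3.1. The table the authors deposited holds log2 values centred per probe, whose differences had a slope of 1 against the scaled scanner values, so it served as an alternative. Control spots and flagged spots were left out, spots of 1 probe were averaged, and the log2 signal minus each array's 75th percentile was used. Probes well above background in both pools of a genotype were kept (24266), and the brightest probe stood for its gene (16810 features, 14281 with a symbol). Symbols were updated through RefSeq (GRCm38.p6), and probe positions are mm9. Groups were compared with limma 3.58.1 in R 4.3.3 on all 4 arrays with Benjamini-Hochberg adjustment over all features, checked on simulated data. The number of arrays limits the precision. The members and lists were chosen with earlier results of these data known. Named by rule were Meis1, the receptors, Dll1, Dll3, Dll4, Jag1, Jag2, Rbpj, Maml1 to Maml3, Hes1, Hes6, Hey1, Lfng, Dtx1 and Nrarp, other members with a separated difference of at least 2-fold on any probe, and up to 6 such genes of the further pathway and T cell progenitor lists. The other members given with values were chosen after their values were seen. So were the genes named of the T cell progenitor list, Ptprc, Pecam1 and the other markers given singly.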

Additional observations from a re-analysis of the deposited data

How the results depend on the processing

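No NOTCH member passed under any setting run, and no setting other than leaving out Meis1-CKO 1 called any feature. The counts of members separated by at least 2-fold, 1 higher and 4 lower, became 0 higher and 1 lower with normexp and quantile normalization and 0 higher among probes above background on all 4 arrays, where Notch4 is not tested. Their median difference of -0.12 was -0.09 with normexp and with median scaling, -0.17 without a filter, -0.15 with all 4 arrays above background and -0.11 with the mean over probes or every probe its own feature. With 1 array left out, the lone array of a group being assumed to vary like the others, the counts were 2 to 3 higher and 3 to 7 lower, the median -0.27 to 0.08, and features called 0 to 317, the last without Meis1-CKO 1. The ranges over these 4 fits, where the sign turned, were -0.61 to 0.37 for Dll1, -0.33 to 0.66 for Dtx1, -0.19 to 1.06 for Hes1, -0.18 to 0.51 for Jag1, -0.11 to 3.06 for Lfng, -1.57 to 0.08 for Meis1, -0.27 to 0.15 for Notch1, -1.04 to 0.58 for Notch3 and -1.23 to 0.10 for Nrarp. Features at an unadjusted limma p under 0.05, 466 here, numbered 221 with normexp, 1010 without a filter, 208 with all 4 arrays above background, 706 with every probe its own feature, 199 without control 1 and 2826 without Meis1-CKO 1. The cause of these changes was not tested. None of the 151 values of named genes under the settings that keep all 4 arrays changed sign. Several of these settings reuse the same readings of the same probes, so many of these values could not turn. With 1 array left out, 13 of 76 values changed sign. With the replicate number as a block, limma called 0 features and 0 members. Same-numbered arrays deviated from their group means with a correlation of 0.13, and since there are 2 pairs and no label ties a number to a shared day, the numbers were not taken to pair the pools. The slide as a random block was not run, since limma could not estimate its correlation from 4 arrays. Dim signals limit Notch4, Dll4 and the second Lfng and Hes6 probes.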
